A study of Mus musculus with 6 samples.

Results

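The mRNA levels of 6 chemokine receptor genes, Ccr1, Ccr2, Ccr3, Ccrl2, Cx3cr1 and Cxcr4, were measured in osteoclast precursors that had been given RANKL with LEA, RANKL alone or no RANKL. The genes were matched by symbol in the deposited table and make up 6 of its 24940 genes. The cells were mouse bone marrow-derived macrophages (BMMs), adherent cells grown out of marrow with M-CSF, a growth factor on which macrophages and their precursors depend. RANKL is the cytokine under which such precursors become osteoclasts, the multinucleated cells that resorb bone, and LEA is what ethyl acetate took up from a water extract of the shiitake mushroom Lentinula edodes, a mixture and not a pure compound. RNA was sequenced in 6 libraries, 2 per condition: RANKL + LEA (M-CSF at 30 ng/mL, RANKL at 100 ng/mL, LEA at 10 µg/mL), RANKL (M-CSF at 30 ng/mL, RANKL at 100 ng/mL) and No RANKL (M-CSF at 30 ng/mL). M-CSF was thus common to all 3 conditions. The mice were 6 to 8 weeks old. The labels give their strain as C57BL/6, while the methods name male ICR mice, and RNA isolation and library kits also differ between both sources. The harvest time for sequencing, any solvent given to the cells that received no LEA and the origin of the replicates (cultures or animals) are not stated, so p-values measure no more than the spread of these libraries, part or all of which may be technical.

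Chemokine receptors are G protein-coupled receptors that lead a cell towards the source of a chemokine. When a ligand binds, the receptor activates Gi proteins, whose freed βγ subunits switch on phosphoinositide 3-kinase γ and phospholipase Cβ, and the cell polarises and moves. Receptor kinases and arrestins then silence the receptor, and RGS proteins shorten the life of the active G protein. In bone, CX3CR1 and CCR2 are known as receptors of circulating monocytes and osteoclast precursors, CXCR4 holds haematopoietic cells near the marrow stroma that makes CXCL12, and CCR1 with its ligand CCL9 is known as a pair used by osteoclast-lineage cells.

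Of the 6 genes, 5 lie on mouse chromosome 9 (mm10). Ccr1 (chr9:123962126-123968692, minus strand), Ccr3 (chr9:124021971-124031689, plus strand) and Ccr2 (chr9:124102183-124109140, plus strand) are neighbours within 147 kb, with gaps of 53.3 kb between Ccr1 and Ccr3 and of 70.5 kb between Ccr3 and Ccr2. Cx3cr1 (chr9:120048683-120068296, minus strand) and Ccrl2 (chr9:111054834-111057244, minus strand) lie farther off on the same chromosome. Cxcr4 lies on chromosome 1 (chr1:128588199-128592299, minus strand). The deposited exon lengths are 2827 bases for Ccr1, 3584 for Ccr2, 3269 for Ccr3, 1758 for Ccrl2, 3749 for Cx3cr1 and 1804 for Cxcr4. In the GENCODE M21 annotation, the coding sequence of the 5 chromosome 9 genes lies in 1 exon each, with 1065 bases for Ccr1, 1119 for Ccr2, 1077 for Ccr3, 1080 for Ccrl2 and 1062 for Cx3cr1. Reads were counted from both strands, but no exon of another GENCODE gene lies within the span of any of the 6, so no overlapping gene could add reads. Ccr1, Ccr2 and Ccr3 are paralogs, and how reads shared between them would have been counted was not tested.

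The sequences just upstream of the start are shown for the pair of receptors that rose with RANKL, Ccr1 and Cxcr4, and for Ccr3, the neighbour of Ccr1 that did not pass the test in any comparison. Each line holds 250 bases before the start from RefSeq (GRCm38.p6), 5′ to 3′ on the strand of the gene, and overlaps no exon of the GENCODE M21 annotation. For Ccr3 this is the start of the transcript counted in the files. The RefSeq span of that gene begins farther upstream, at base 124017825, so its window lies inside the span. They are at chr9:123968693-123968942 (minus strand) for Ccr1, at chr1:128592300-128592549 (minus strand) for Cxcr4 and at chr9:124021721-124021970 (plus strand) for Ccr3. Capitals mark matches, on either strand, to 4 motifs of factors that act downstream of RANKL: AP-1 (TGANTCA), the NFAT core (GGAAA), kappa B (GGGA and TTCC with any 2 bases between) and the E-box (CACGTG).
Ccr1: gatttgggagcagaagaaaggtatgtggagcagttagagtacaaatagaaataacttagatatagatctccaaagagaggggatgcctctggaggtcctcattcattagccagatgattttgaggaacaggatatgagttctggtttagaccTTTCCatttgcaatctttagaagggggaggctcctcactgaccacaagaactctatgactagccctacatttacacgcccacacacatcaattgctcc
Cxcr4: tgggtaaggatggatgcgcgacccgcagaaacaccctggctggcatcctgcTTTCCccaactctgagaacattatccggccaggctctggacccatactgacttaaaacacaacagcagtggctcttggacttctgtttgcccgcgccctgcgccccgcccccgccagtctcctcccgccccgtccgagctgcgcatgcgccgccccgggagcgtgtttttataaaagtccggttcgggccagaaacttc
Ccr3: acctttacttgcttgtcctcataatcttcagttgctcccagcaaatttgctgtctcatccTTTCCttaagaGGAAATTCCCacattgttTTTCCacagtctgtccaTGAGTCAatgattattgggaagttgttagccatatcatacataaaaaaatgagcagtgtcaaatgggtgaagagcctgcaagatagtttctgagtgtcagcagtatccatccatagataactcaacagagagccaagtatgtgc
The NFAT core matched in all 6 receptors, 98 bases before the start of Ccr1 and 199 bases before that of Cxcr4, but it is short and 55.6% of 27025 mouse promoters of the same length hold it. The windows of Ccr2, Ccrl2 and Cx3cr1, which are not shown, overlap exons of the GENCODE M21 annotation. Those of Ccr2 and Ccrl2 also lie inside the RefSeq span of their gene. Ccr3 held the only AP-1 match, 144 bases before its start, and the only kappa B match, at 179 bases, where it overlaps an NFAT core. Among all promoters, 6.87% hold the AP-1 letters and 1.17% the kappa B letters. The E-box, present in 6.05% of promoters, had no match in the 6 windows. GC content was 43.6% for Ccr1, 61.2% for Cxcr4, 40.4% for Ccr3, 37.2% for Ccr2, 51.2% for Ccrl2 and 53.6% for Cx3cr1, against a median of 52% over all promoters. A match is a description of the letters and no evidence of binding.

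All 6 libraries had similar depth, between 46379577 and 49590638 reads as read from the smallest step of the FPKM values. FPKM scales the reads of a gene by its exon length and by the mapped reads of the library, so levels of different genes can be set side by side. The libraries of 1 condition correlated across genes with a Pearson r of 0.985 to 0.988. The cells carried the markers of their label: Csf1r, the M-CSF receptor, was at 325 and 322 FPKM in RANKL + LEA, 350.0 and 350.8 FPKM in RANKL and 606 and 589 FPKM in No RANKL. Of 9 eosinophil genes and 9 mast cell and basophil genes, none reached 0.5 FPKM in any library, nor did any of 8 B cell genes. No T and NK cell gene passed the filter described next. Some markers of other cells did, all at low levels: S100a8 of 10 neutrophil genes, Batf3 and Zbtb46 of 8 dendritic cell genes, Col1a1, Col1a2 and Runx2 of 10 stromal and osteoblast genes, and Kdr and Vwf of 6 endothelial genes. With RANKL, S100a8, Batf3, Col1a1 and Col1a2 were lower and Zbtb46, Kdr and Vwf higher than in No RANKL, and with LEA, S100a8 and Runx2 were higher than with RANKL alone. The summed level of the neutrophil genes was 1.19 to 1.73 FPKM in RANKL + LEA, 0.457 to 0.621 FPKM in RANKL and 3.37 to 4.06 FPKM in No RANKL, with Ly6g and Retnlg at 0 throughout. For the stromal genes it was 4.44 to 6.21 FPKM in RANKL + LEA, 3.62 to 3.93 FPKM in RANKL and 7.11 to 7.31 FPKM in No RANKL, with Bglap at 0. For the endothelial genes it was 5.21 to 5.38 FPKM in RANKL + LEA, 4.14 to 4.19 FPKM in RANKL and 1.74 to 1.75 FPKM in No RANKL, with Tek and Emcn at 0. The dendritic cell genes summed to 1.32 to 1.43 FPKM in RANKL + LEA, 2.07 to 2.21 FPKM in RANKL and 2.38 to 2.62 FPKM in No RANKL. The part of such cells in the values below was not tested. Conditions were compared with limma on log2(FPKM + 0.1), in 1 fit of the 6 libraries. Only the 11905 genes that reached 0.5 FPKM in 2 or more libraries were tested. A call required a change of at least 1.5-fold together with a p under 0.05 after Benjamini-Hochberg adjustment over these genes. SE denotes the standard error of a fitted log2 fold change. Fold changes are on this log2 scale, which understates those of low genes such as Ccrl2 and Ccr3. All 6 receptors were above the limit of 0.5 FPKM in all 6 libraries. In bulk RNA, fewer cells of a type and less RNA per cell cannot be told apart.

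The leading receptor differed between cells with and without RANKL. Ccr1 was the most abundant of the 6 in RANKL + LEA and RANKL cells, whereas Cx3cr1 was in No RANKL cells. RANKL raised Ccr1 and Cxcr4 and lowered Cx3cr1, Ccrl2 and Ccr2 relative to No RANKL, and Ccr3 did not pass the test. Thus 2 of 6 receptors were higher (17.8% of all genes tested were) and 3 of 6 were lower (17.8% of all genes), 5 of 6 in either direction against 35.7% of all genes. The median log2 fold change of the 6 was −0.17, against 0.00060 over all genes.

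**Figure D1:**
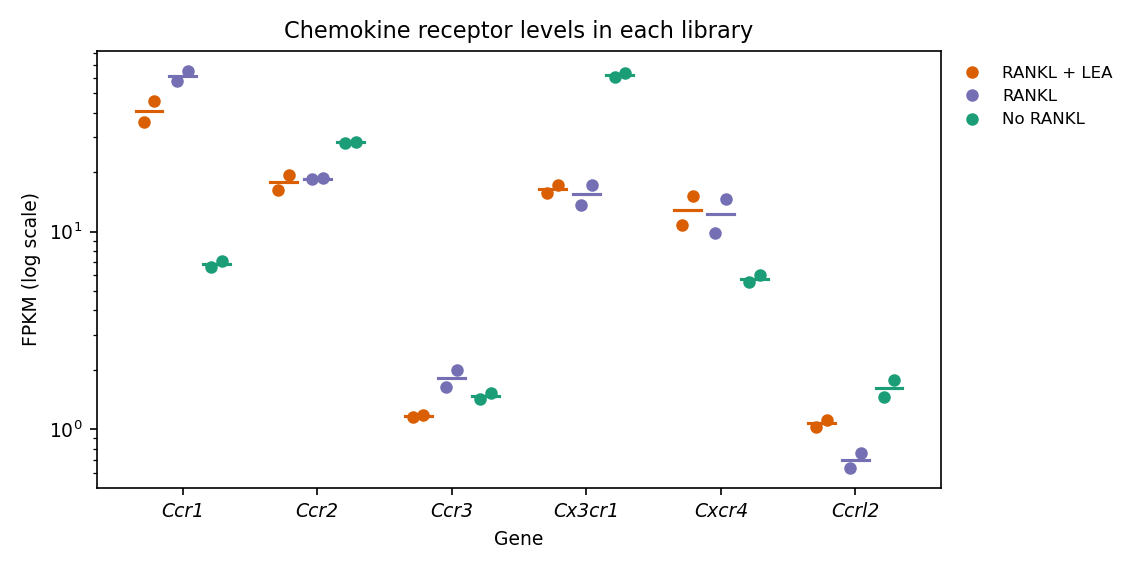
FPKM of the 6 receptors (log scale) in each library, with RANKL + LEA, RANKL and No RANKL side by side for each gene. Points are libraries (n = 2 per condition) and short lines are means. Ccr1 lies at 57.6 and 65.2 FPKM in RANKL and at 6.60 and 7.14 FPKM in No RANKL, while Cx3cr1 shows the opposite order.

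Ccr1, a receptor for CCL3, CCL5, CCL7 and CCL9 among others, was at 45.7 and 35.8 FPKM in RANKL + LEA, 65.2 and 57.6 FPKM in RANKL and 6.60 and 7.14 FPKM in No RANKL. The 3 conditions did not overlap, and all 4 libraries with RANKL lay well above the pair without it. RANKL raised Ccr1 8.81-fold over No RANKL (log2 fold change 3.14 ± 0.14 SE, limma adjusted p = 1.5e-06). Among the 11905 genes tested, Ccr1 stood at percentile 88.3 in RANKL + LEA and 92.5 in RANKL, against 46.9 in No RANKL. The 14 osteoclast markers listed all passed the filter and were all higher with RANKL than in No RANKL, against 17.8% of all genes. Their summed level was 5784 to 6696 FPKM in RANKL and 136 to 140 FPKM in No RANKL, and the part of the osteoclast content of the cultures in the change of Ccr1 was not tested.

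Cx3cr1, the receptor for the membrane-bound chemokine fractalkine, was at 17.3 and 15.6 FPKM in RANKL + LEA, 17.3 and 13.7 FPKM in RANKL and 63.7 and 60.8 FPKM in No RANKL. It was high only in the libraries without RANKL, and the RANKL + LEA and RANKL values overlapped. RANKL lowered Cx3cr1 relative to No RANKL (log2 fold change −2.01 ± 0.13 SE, limma adjusted p = 1.1e-05). Its percentile among tested genes was 70.7 in RANKL + LEA and 69.9 in RANKL, against 92.7 in No RANKL. Of 15 macrophage genes, RANKL also lowered 14 and raised none, against 17.8% of all genes in each direction. Their summed level was 1390 to 1471 FPKM in RANKL and 5160 to 5570 FPKM in No RANKL. The largest single part of the sum in No RANKL came from Apoe, at 71.7 and 62.2 FPKM in RANKL and 2268 and 2475 FPKM in No RANKL. With LEA, 9 of the 15 were higher than with RANKL alone, against 4.54% of all genes, while Cx3cr1 was not called (log2 fold change 0.097). Of 10 markers of non-classical monocytes, the Cx3cr1-rich patrolling subset, 9 passed the filter. Of these, 5 were lower with RANKL than in No RANKL and 2, Eno3 and Spn, were higher, against 17.8% of all genes in each direction. With LEA, 4 of the 9 were higher and 1 was lower than with RANKL alone, against 4.54% and 1.77% of all genes. The 10 genes summed to 59.8 to 68.7 FPKM in RANKL and 503 to 575 FPKM in No RANKL. Most of the sum in No RANKL came from Cd36, a lipid scavenger receptor that macrophages also carry, which was at 18.0 and 16.9 FPKM in RANKL and 435 and 506 FPKM in No RANKL. Without it the other 9 genes summed to 42.9 to 50.7 FPKM in RANKL and 68.60 to 68.99 FPKM in No RANKL. The part of these cells in the change of Cx3cr1 was not tested.

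Cxcr4, the receptor for CXCL12, was at 15.1 and 10.8 FPKM in RANKL + LEA, 14.7 and 9.84 FPKM in RANKL and 5.55 and 6.03 FPKM in No RANKL. Its replicates lay apart in both conditions with RANKL, but the lowest of those 4 values was above both No RANKL values. RANKL raised Cxcr4 over No RANKL (log2 fold change 1.04 ± 0.22 SE, limma adjusted p = 0.00492). This is the widest standard error among the 6 receptors.

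Ccr2, the receptor for CCL2, CCL7 and CCL12 that draws monocytes out of marrow, was at 19.4 and 16.2 FPKM in RANKL + LEA, 18.4 and 18.6 FPKM in RANKL and 28.0 and 28.5 FPKM in No RANKL. The libraries without RANKL were the highest, and the RANKL values fell between those of RANKL + LEA. RANKL lowered Ccr2 by little more than the limit of 1.5-fold (log2 fold change −0.61 ± 0.12 SE, limma adjusted p = 0.00316). With a pseudocount of 1 the value was −0.58, just inside that limit. Of 10 classical monocyte genes, the subset defined by high CCR2, 5 passed the filter. Of these, 3 were lower and 1, Vcan, was higher with RANKL than in No RANKL, against 17.8% of all genes in each direction. The sum of the 10 was 18.2 to 21.1 FPKM in RANKL and 15.3 to 16.8 FPKM in No RANKL, but Vcan, a matrix proteoglycan, carried the sum in RANKL, at 15.4 and 18.1 FPKM in RANKL and 0.119 and 0.213 FPKM in No RANKL. Without it the other 9 genes summed to 2.77 to 3.08 FPKM in RANKL and 15.2 to 16.5 FPKM in No RANKL. Most of the latter sum came from F13a1, at 8.615 and 9.36 FPKM in No RANKL, and Fn1, at 4.35 and 3.78 FPKM. In RANKL + LEA the same 9 genes summed to 4.375 to 4.989 FPKM. The part of these cells in the change of Ccr2 was not tested.

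Ccrl2, an atypical receptor that binds chemerin and presents it to other cells without signalling through G proteins, was at 1.12 and 1.03 FPKM in RANKL + LEA, 0.763 and 0.638 FPKM in RANKL and 1.45 and 1.77 FPKM in No RANKL. The 3 conditions did not overlap, with No RANKL highest and RANKL lowest. RANKL lowered Ccrl2 relative to No RANKL (log2 fold change −1.09 ± 0.20 SE, limma adjusted p = 0.00287). These values rest on few reads, 52 to 64 per library in RANKL and 122 to 150 in No RANKL.

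Ccr3, the eotaxin receptor best known from eosinophils, was at 1.18 and 1.15 FPKM in RANKL + LEA, 2.01 and 1.64 FPKM in RANKL and 1.43 and 1.53 FPKM in No RANKL. Both RANKL values were above both No RANKL values, but the log2 fold change of 0.28 ± 0.18 SE (limma adjusted p = 0.236) did not pass the test, with a 95% interval of −0.14 to 0.69. Markers of eosinophils were near 0 in the same libraries. The summed level of 9 such genes was 0.181 to 0.295 FPKM in RANKL + LEA, 0.253 to 0.322 FPKM in RANKL and 0.136 to 0.178 FPKM in No RANKL, with Prg3, Ear1 and Ear6 at 0 throughout. Of 9 mast cell and basophil genes, 6 were at 0 in all libraries, among them Cpa3, Mcpt4 and Ms4a2. The part of eosinophils, mast cells and basophils in the values of Ccr3 was not tested.

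The make-up of the receptor transcripts was recast while their sum varied less. Added together, the 6 receptors came to 80.5 to 99.7 FPKM in RANKL + LEA, 102 to 118 FPKM in RANKL and 106 to 107 FPKM in No RANKL. Ccr1 made up 45.8% and 44.4% of this sum in RANKL + LEA, 55.1% and 56.4% in RANKL and 6.18% and 6.75% in No RANKL. Cx3cr1 made up 17.3% and 19.4% in RANKL + LEA, 14.6% and 13.4% in RANKL and 59.7% and 57.5% in No RANKL. The 4 libraries with RANKL therefore carried more Ccr1 than Cx3cr1, and those without it the reverse. The ratio of Ccr1 to Cx3cr1 was 2.64 and 2.29 in RANKL + LEA, 3.77 and 4.21 in RANKL and 0.104 and 0.117 in No RANKL. Cxcr4 held 15.1% and 13.4% in RANKL + LEA, 12.4% and 9.65% in RANKL and 5.20% and 5.70% in No RANKL. Ccr2 held between 15.6% and 27.0% in every library, and Ccr3 and Ccrl2 never more than 1.70% each.

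**Figure D2:**
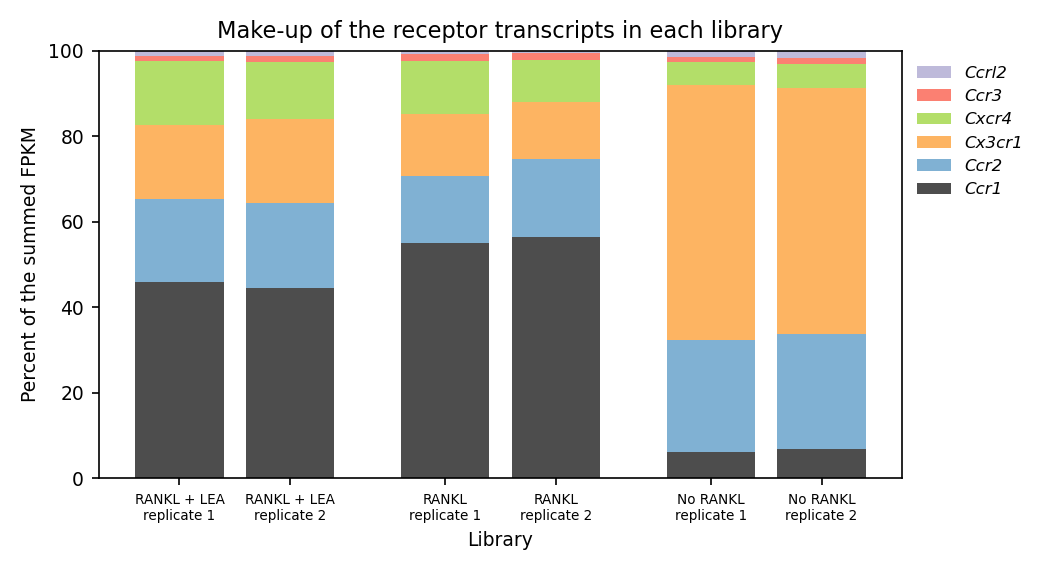
Share of each receptor in the summed FPKM of the 6 receptors (percent), 1 bar per library, with RANKL + LEA, RANKL and No RANKL from left to right. Ccr1 takes 44.4% to 56.4% of the bars with RANKL and 6.18% to 6.75% of those without, and Cx3cr1 takes 57.5% to 59.7% of the bars without RANKL.

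Within a condition, the order by FPKM was clear for most but not all neighbours. In RANKL + LEA it ran Ccr1, Ccr2, Cx3cr1, Cxcr4, Ccr3 and Ccrl2, and Ccr2 and Cx3cr1 overlapped. In RANKL the order was the same, and Cx3cr1 and Cxcr4 overlapped. In No RANKL it ran Cx3cr1, Ccr2, Ccr1, Cxcr4, Ccrl2 and Ccr3, with overlap between Ccrl2 and Ccr3.

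LEA treatment lowered Ccr1 relative to RANKL alone, and no other receptor passed the test. This is 1 of 6 receptors lower (1.77% of all genes tested were) and 0 of 6 higher (4.54% of all genes were), or 1 of 6 in either direction against 6.31% of all genes. The median log2 fold change of the 6 was 0.0094, against 0.049 over all genes. Ccr1 had a log2 fold change of −0.60 ± 0.14 SE (95% interval −0.92 to −0.27, limma adjusted p = 0.0406) between RANKL + LEA and RANKL. This call was close to both limits. It ended when any 1 of the 6 libraries was left out, with log2 fold changes of −0.78 to −0.42 and adjusted p-values of 0.0538 to 0.176. Over the other alternatives the adjusted p ran from 0.0039 to 0.107. All 14 osteoclast markers passed the filter and 13 of them were also lower with LEA, with a sum of 2996 to 3125 FPKM in RANKL + LEA and 5784 to 6696 FPKM in RANKL. Their part in the value of Ccr1 was not tested.

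The other receptors did not pass the test between RANKL + LEA and RANKL. Ccr3, whose values did not overlap between these conditions, had a log2 fold change of −0.60 ± 0.18 SE (95% interval −1.01 to −0.18, limma adjusted p = 0.0828). It was called, with adjusted p-values of 0.0246 to 0.0476, after scaling to 1 median, quantile normalization or voom on recovered reads. Ccrl2, which did not overlap either, had a log2 fold change of 0.56 ± 0.20 SE (95% interval 0.083 to 1.03, limma adjusted p = 0.144). For Ccr2, Cx3cr1 and Cxcr4 the values of RANKL + LEA and RANKL overlapped. Their 95% intervals were −0.33 to 0.20 for Ccr2, −0.21 to 0.40 for Cx3cr1 and −0.42 to 0.59 for Cxcr4. The direction of these 3 turned when 1 library was left out, and a change of up to about these bounds was not detectable with 2 libraries per condition.

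**Figure D3:**
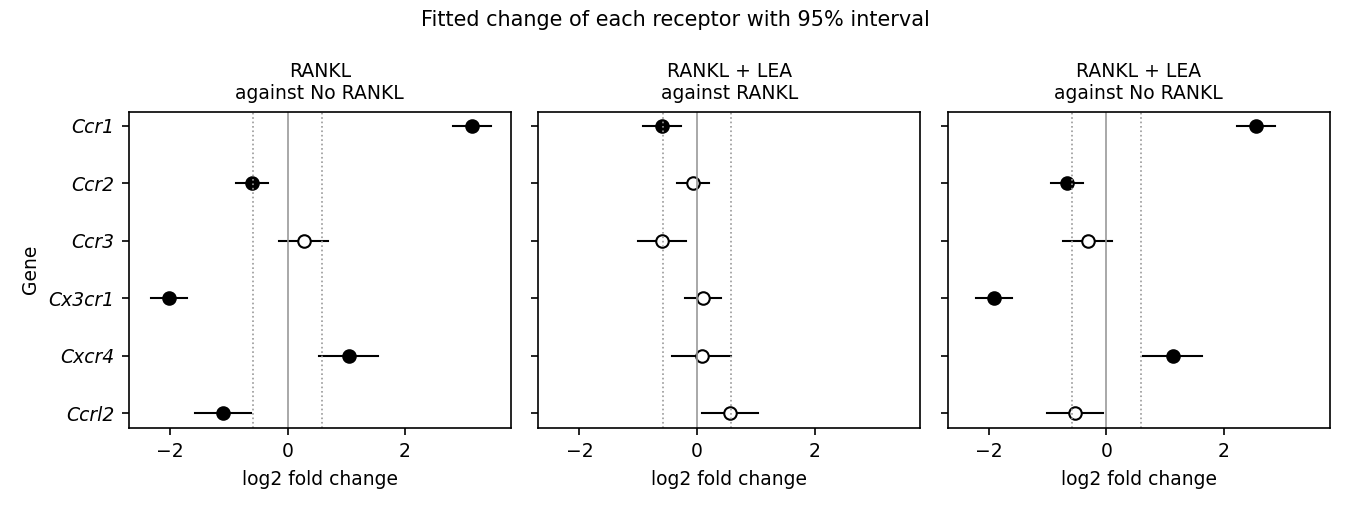
Fitted log2 fold change (points) with 95% interval (lines) of each receptor in the 3 comparisons. Filled points passed both limits, and dotted lines mark the 1.5-fold limit. With RANKL against No RANKL, Ccr1 stands at 3.14 and Cx3cr1 at −2.01, and with RANKL + LEA against RANKL only Ccr1, at −0.60, is filled.

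Between RANKL + LEA and No RANKL, 4 receptors were called, each in the direction it had with RANKL alone. Ccr1 was higher (log2 fold change 2.54 ± 0.14 SE, limma adjusted p = 7.1e-06), as was Cxcr4 (1.12 ± 0.22 SE, adjusted p = 0.0047). Cx3cr1 was lower (−1.91 ± 0.13 SE, limma adjusted p = 2.4e-05), as was Ccr2 (−0.67 ± 0.12 SE, adjusted p = 0.00274). Ccr2 was not called at −0.54 when RANKL + LEA replicate 2 was left out. Ccrl2 (−0.54, 95% interval −1.01 to −0.062, limma adjusted p = 0.0715) and Ccr3 (−0.32, 95% interval −0.73 to 0.093, limma adjusted p = 0.193) did not pass the test. Thus 2 of 6 receptors were higher against 15.5% of all genes, 2 of 6 were lower against 11.8%, and 4 of 6 were called in either direction against 27.3%. The 3 comparisons share libraries, so their values are not independent of each other.

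Beyond these 6, few chemokine receptors were detected. Of 17 others listed, 14 were under 0.5 FPKM in every library and 1, Cxcr3, passed the filter. All 17 together summed to 1.86 to 2.28 FPKM in RANKL + LEA, 1.90 to 2.16 FPKM in RANKL and 2.40 to 2.69 FPKM in No RANKL. Cxcr3, a receptor for interferon-induced chemokines, was at 0.691 and 0.427 FPKM in RANKL + LEA, 0.261 and 0.242 FPKM in RANKL and 0.509 and 0.980 FPKM in No RANKL. It was lower with RANKL (log2 fold change −1.21 ± 0.36 SE, limma adjusted p = 0.0260). This call ended without RANKL replicate 1, RANKL replicate 2 or No RANKL replicate 2, with a pseudocount of 1 and with no filter on low values. The log2 fold change of Cxcr3 with LEA, 0.88, was not called (limma adjusted p = 0.195). Ackr3, the scavenger receptor that shares CXCL12 with Cxcr4, was listed at 0 in all but 1 library. Ccrl2 shares chemerin with Cmklr1, the signalling chemerin receptor, and Gpr1, of which only Cmklr1 passed the filter. Cmklr1 was at 1.60 and 1.75 FPKM in RANKL + LEA, 0.856 and 0.623 FPKM in RANKL and 4.84 and 5.40 FPKM in No RANKL, the same order of conditions as Ccrl2. RANKL lowered it (log2 fold change −2.65 ± 0.19 SE, limma adjusted p = 1.6e-05). It was higher with LEA than with RANKL alone (1.09 ± 0.19 SE, limma adjusted p = 0.0155). This call ended without either RANKL + LEA library, without RANKL replicate 2 and with no filter on low values.

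Part of the known ligands of the 6 receptors were transcribed in the cultures themselves. Of 17 ligand genes listed, 10 passed the filter and 7 were under 0.5 FPKM in every library, among them the eotaxin genes Ccl11 and Ccl24. RANKL lowered 6 of these 10, Ccl2, Ccl3, Ccl4, Ccl6, Ccl7 and Ccl12, and raised 3, Ccl5, Ccl9 and Rarres2, with Mif not called. This is 9 of 10 called, against 35.7% of all genes tested. The median log2 fold change of the 10 was −2.93, against 0.00060 over all genes. LEA treatment raised these 6 genes relative to RANKL alone, against 4.54% of all genes, and lowered none, with a median of 1.13 against 0.049 over all genes. Macrophage genes moved with them: 9 of 15 were higher with LEA than with RANKL alone and none was lower, with a median of 0.82. Their sum was 1594 to 1665 FPKM in RANKL + LEA and 1390 to 1471 FPKM in RANKL, and their part in the change of the ligands, of Cmklr1 and of the signalling genes described next was not tested. The 6 ligand genes raised by LEA were all lower in RANKL + LEA than in No RANKL, against 11.8% of all genes. Ccl5 and Ccl9 were higher there (log2 fold changes 0.97 and 0.98), against 15.5% of all genes. Mif and Rarres2 were not called.

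Ccl2, the main ligand of CCR2, was at 14.9 and 9.47 FPKM in RANKL + LEA, 4.84 and 4.50 FPKM in RANKL and 33.7 and 40.0 FPKM in No RANKL. It was lower with RANKL (log2 fold change −2.95 ± 0.20 SE, limma adjusted p = 1.4e-05) and higher with LEA than with RANKL alone (1.33 ± 0.20 SE, limma adjusted p = 0.0107). Ccl7, which CCR1, CCR2 and CCR3 all bind, was at 1.71 and 1.60 FPKM in RANKL + LEA, 0.475 and 0.597 FPKM in RANKL and 8.13 and 7.72 FPKM in No RANKL. For both genes the 3 conditions did not overlap, with RANKL lowest. Ccl12, a mouse ligand of CCR2, was listed at 0 in both RANKL libraries, at 0.394 and 0.456 FPKM in RANKL + LEA and at 1.58 and 2.26 FPKM in No RANKL. Placed at the level that 3 reads give, it left the medians of the ligands as they were.

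Ccl3 and Ccl4, inflammatory chemokines of which CCL3 binds CCR1, were lower with RANKL, with log2 fold changes of −2.90 and −4.99 (limma adjusted p = 2.1e-05 and 3.1e-06). Ccl3 was at 5.38 and 3.83 FPKM in RANKL + LEA, 2.67 and 1.92 FPKM in RANKL and 15.8 and 19.5 FPKM in No RANKL. Ccl4 was at 2.24 and 1.42 FPKM in RANKL + LEA, 0.480 and 0.329 FPKM in RANKL and 13.6 and 18.2 FPKM in No RANKL. Ccl6, a rodent chemokine that binds CCR1, was at 51.5 and 42.8 FPKM in RANKL + LEA, 18.9 and 19.2 FPKM in RANKL and 132 and 178 FPKM in No RANKL. In all 3 genes the RANKL libraries were lowest and the RANKL + LEA libraries lay between the other conditions. The calls of Ccl2, Ccl3, Ccl4 and Ccl6 between RANKL + LEA and RANKL ended when either RANKL library was left out. Those of Ccl7 and Ccl12 did not. With no filter on low values, the calls of Ccl2, Ccl3 and Ccl4 ended as well.

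Ccl9, the CCR1 ligand that osteoclast-lineage cells make in quantity, was the most abundant of the 10 ligand genes tested, in every library except those without RANKL, where Mif was. It was at 493 and 435 FPKM in RANKL + LEA, 469 and 477 FPKM in RANKL and 220 and 251 FPKM in No RANKL. RANKL raised it (log2 fold change 1.01 ± 0.11 SE, limma adjusted p = 2.0e-04), so that Ccr1 and Ccl9 were both higher with RANKL, and with LEA it was not called (−0.031 ± 0.11 SE, limma adjusted p = 0.914). Ccl5, a ligand of CCR1 and CCR3, was at 2.70 and 3.07 FPKM in RANKL + LEA, 2.11 and 2.34 FPKM in RANKL and 1.16 and 1.73 FPKM in No RANKL. Rarres2, which encodes chemerin, was at 2.77 and 2.96 FPKM in RANKL + LEA, 4.87 and 3.07 FPKM in RANKL and 2.38 and 2.56 FPKM in No RANKL. The calls of Ccl5 and Rarres2 with RANKL (limma adjusted p = 0.0391 and 0.0384) were weak, and 5 of the 6 fits with a library left out ended each of them. Mif, a cytokine that also binds CXCR4, was at 273 to 293 FPKM in all 6 libraries. The named ligands of 2 receptors were all but missing from the cells: Cx3cl1, which encodes fractalkine, was at most 0.233 FPKM in any library and Cxcl12 at most 0.067 FPKM.

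**Figure D4:**
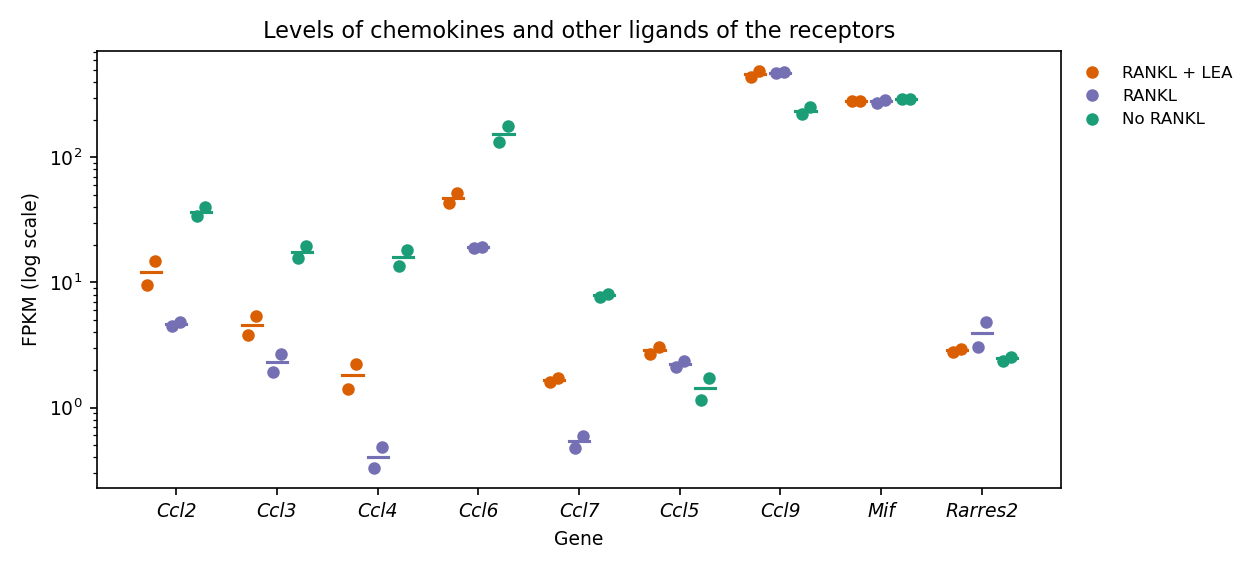
FPKM (log scale) of 9 ligand genes of the receptors in each library, with RANKL + LEA, RANKL and No RANKL side by side. Points are libraries (n = 2 per condition) and short lines are means; Ccl12, listed at 0 in RANKL, is not drawn. Ccl2, Ccl3, Ccl4, Ccl6 and Ccl7 are lowest in RANKL, while Ccl9 is lowest in No RANKL.

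The genes that relay the receptor signal were expressed in every condition and moved in both directions. Of 18 listed, 17 passed the filter. With RANKL, 4 were higher (Gnb4, Pik3r5, Plcb2 and Rac2), 5 were lower (Dock2, Elmo1, Gng2, Pik3cg and Pik3r6) and 8 were not called, with a median log2 fold change of −0.31 against 0.00060 over all genes. The background share was 17.8% of all genes in each direction and 35.7% in either, against 9 of these 17. Gnai2, the main Gi protein of leukocytes, was at 347 and 380 FPKM in RANKL + LEA, 323 and 293 FPKM in RANKL and 441 and 439 FPKM in No RANKL, and stayed under the 1.5-fold limit (log2 fold change −0.51). Within the phosphoinositide 3-kinase γ complex, the catalytic subunit gene Pik3cg and the regulatory subunit gene Pik3r5 went opposite ways. Pik3cg was at 12.5 and 12.9 FPKM in RANKL + LEA, 8.28 and 7.75 FPKM in RANKL and 24.6 and 23.0 FPKM in No RANKL, with a log2 fold change of −1.56 ± 0.10 SE with RANKL (limma adjusted p = 1.2e-05). Pik3r5 was at 67.6 and 72.0 FPKM in RANKL + LEA, 76.1 and 66.3 FPKM in RANKL and 31.5 and 29.2 FPKM in No RANKL, with a log2 fold change of 1.23 ± 0.11 SE (limma adjusted p = 5.8e-05). Rac2, the small GTPase of blood cells that drives actin at the leading edge, was at 109 and 107 FPKM in RANKL + LEA, 192 and 164 FPKM in RANKL and 49.1 and 53.8 FPKM in No RANKL. It was higher with RANKL (log2 fold change 1.78 ± 0.11 SE, limma adjusted p = 8.5e-06) and lower with LEA than with RANKL alone (−0.72 ± 0.11 SE, limma adjusted p = 0.0112). LEA treatment raised Gng2, a G protein γ subunit (0.71, limma adjusted p = 0.0237), and Pik3cg (0.66, limma adjusted p = 0.0122), and 14 of the 17 were not called. This is 3 of 17 called, against 6.31% of all genes, with a median of 0.24 against 0.049. These 3 calls all ended without RANKL + LEA replicate 1, and likewise without RANKL replicate 1. That of Gng2 also ended with no filter on low values.

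The genes that end the signal were all measured. Of the 17 listed, all of which passed the filter, 3 were higher with RANKL (Grk3, Rgs16 and Rgs3), 7 were lower (Arrb1, Arrb2, Grk5, Rgs1, Rgs12, Rgs18 and Rgs2) and 7 were not called, with a median of −0.46 against 0.00060 over all genes. The background share was again 17.8% of all genes in each direction and 35.7% in either, against 10 of these 17. Grk3, a kinase that marks active receptors for arrestin, had the widest change of the list. It was at 24.31 and 24.32 FPKM in RANKL + LEA, 32.5 and 29.5 FPKM in RANKL and 1.06 FPKM in both No RANKL libraries, with a log2 fold change of 4.75 ± 0.11 SE with RANKL (limma adjusted p = 5.9e-08). Arrb2, which encodes β-arrestin, was at 67.0 and 59.2 FPKM in RANKL + LEA, 49.7 and 41.4 FPKM in RANKL and 156 and 164 FPKM in No RANKL. Of the other receptor kinase genes, Grk5 was lower with RANKL, like Arrb2 (log2 fold change −1.12 ± 0.15 SE, limma adjusted p = 5.9e-04), and Grk2 (−0.48) and Grk6 (−0.28) were not called. Rgs1, a brake on chemokine signals in blood cells, was at 3.59 and 2.71 FPKM in RANKL + LEA, 1.39 and 1.03 FPKM in RANKL and 12.1 and 15.0 FPKM in No RANKL. It was lower with RANKL (log2 fold change −3.39 ± 0.20 SE, limma adjusted p = 6.5e-06) and higher with LEA than with RANKL alone (1.31 ± 0.20 SE, limma adjusted p = 0.0108). With LEA, Rgs12, Rgs14 and Rgs18 were also higher than with RANKL alone, by 0.94, 0.90 and 0.87 on the log2 scale, none of the 17 was lower and 13 were not called. This is 4 of 17 higher, against 4.54% of all genes, with a median of 0.096 against 0.049. None of these 4 calls held without RANKL + LEA replicate 1, without RANKL replicate 2 or with no filter on low values.

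**Figure D5:**
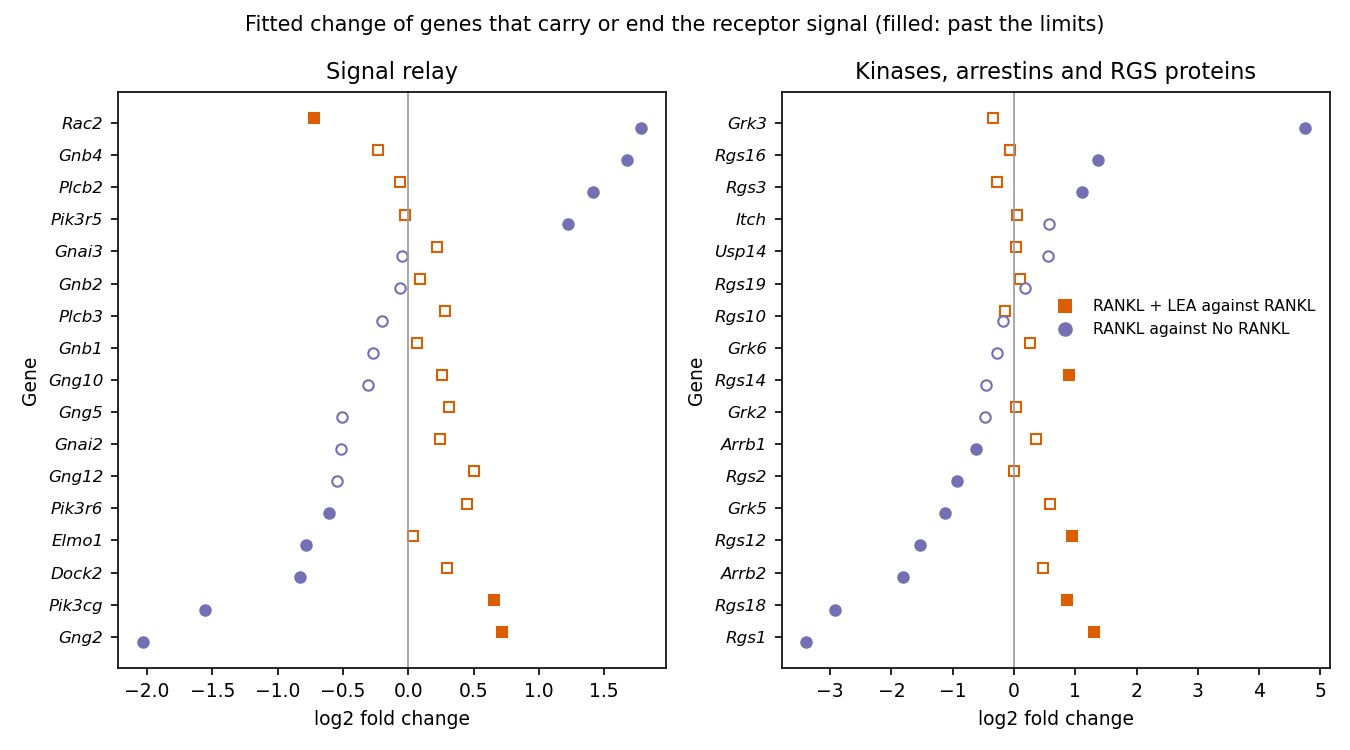
Fitted log2 fold change of genes that relay the receptor signal (left) and of kinases, arrestins and other genes that end it (right), for RANKL + LEA against RANKL (squares) and RANKL against No RANKL (circles), with filled symbols past both limits. Both comparisons use the RANKL libraries, so opposite directions are not independent. Grk3 stands at 4.75 and Rgs1 at −3.39 with RANKL.

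The genes whose pattern over the 6 libraries was closest to that of each receptor were found by the root mean square difference of log2(FPKM + 0.1), each gene centred on its own mean. For Ccr1 these were Enpp5 (0.0673), Sgsm1 (0.0893) and Atp6v1d (0.102), a subunit of the proton pump that acidifies vesicles. Enpp5 and Sgsm1 were listed at 0 in No RANKL, so their place depends on the pseudocount. Atp6v1d was at 95.2 and 86.7 FPKM in RANKL + LEA, 159 and 146 FPKM in RANKL and 16.3 and 18.7 FPKM in No RANKL. For Cx3cr1 they were Wtip (0.0586), Itpripl1 (0.0895) and 4930473A02Rik (0.117), for Cxcr4 they were Xlr4b (0.107), Marveld1 (0.114) and Prkcd (0.114), and for Ccr2 they were Psen2 (0.0432), Polr3gl (0.0489) and Cops4 (0.0557). Ticam1 (0.0471), Kctd1 (0.0568) and Mfsd11 (0.0580) were closest to Ccr3, and Commd10 (0.0398), Cdca5 (0.0414) and Ankrd46 (0.0514) to Ccrl2. None of the 6 receptors was among the 3 closest genes of another, which with 11905 genes tested says little on whether receptors varied together.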

How the data were processed

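RNA-seq reads were mapped to mm10 with HISAT2, and the authors counted reads on exons with HOMER, from both strands and with 1 transcript per gene. Versions of both tools were not given in the sources used here. Values deposited by the authors are FPKM per library. The table also holds 2 lists of gene symbols from DESeq2 tests that the authors ran, which were not used. Of 24940 genes, 6379 were at 0 in all libraries and 26 had dates for symbols.

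Depth was read from the FPKM steps, since FPKM times exon length gave whole reads for all values examined (genes under 3000 bases, up to 20.5 reads, tolerance 0.1). Depth was 47814438 and 49590638 reads in RANKL + LEA, 47735641 and 46379577 in RANKL, and 47725528 and 48300038 in No RANKL.

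The test was limma (version 3.58.1, with R 4.3.3) on log2(FPKM + 0.1), using lmFit, contrasts.fit and eBayes with trend, with 3 residual degrees of freedom shared by all conditions. The fit was tested on simulated data. The members and gene lists were chosen with earlier results of these data known. The text names all 6 receptors and the 3 closest genes of each. The rule also allowed any gene of the lists of other receptors, ligands, signal relay and desensitisation that passed the filter, and markers that averaged 1 FPKM or more in a condition. Which of these are given with values was chosen with the values in view, and so were Zbtb46, the markers at 0 and the genes named below the filter. Results for 1 further gene are not reported. Alternatives covered the pseudocount, filter, scaling, replicate block, libraries in the fit, estimate of the spread, fold limit, voom on recovered reads and each library left out. Python 3.11.15, pandas 2.3.3 and matplotlib 3.10.9 made the tables and figures.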

Additional observations from a re-analysis of the deposited data

How the results depend on the processing

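The calls for RANKL against No RANKL and for RANKL + LEA against No RANKL stayed within 1.5 times their count under all alternatives. The count for RANKL + LEA against RANKL, 1 receptor, did not. It was 0 with no filter on low values, with the replicate block, with the 4 libraries of the comparison alone, with eBayes without trend and at a 2-fold limit, and 0 to 0 with each library left out. It was 2, Ccr1 and Ccr3, with scaling to 1 median, quantile normalization and voom. Ccr1 then had adjusted p-values of 0.107 without the filter, 0.0503 with the replicate block, 0.0536 with the 4 libraries and 0.0775 without trend, and the cause was not tested. Whether the replicate numbers pair the samples is not stated, and 1 difference per condition cannot decide it. Over genes, the differences between replicates 1 and 2 correlated at 0.12 for RANKL + LEA and RANKL. The correlation was −0.08 for RANKL and No RANKL and −0.25 for RANKL + LEA and No RANKL. The replicate block with the No RANKL numbers crossed, chosen after seeing the data, gave 2. With 1 library left out, the log2 fold change between RANKL + LEA and RANKL ran from −0.19 to 0.066 for Ccr2 (turned without RANKL + LEA replicate 2), from −0.071 to 0.26 for Cx3cr1 (turned without RANKL replicate 2) and from −0.20 to 0.37 for Cxcr4 (turned without RANKL replicate 2 and, at −0.16, without RANKL + LEA replicate 1), and none was called. Of 336 alternative values of single receptors, 311 kept direction and side of the limits, 15 lost a call, 6 gained one and 4 turned. Ccrl2 in RANKL + LEA against No RANKL was called with scaling to 1 median (−0.62) and quantile normalization (−0.65).

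Over all genes, 751 were called for RANKL + LEA against RANKL, 540 higher and 211 lower. The count was 291 with no filter, 248 at 2-fold and 141 to 669 with 1 library left out. The split was 473 higher and 301 lower with scaling to 1 median, and 439 and 328 with quantile normalization. At 2-fold, 2390 of the 4250 genes for RANKL against No RANKL and 1662 of the 3245 for RANKL + LEA against No RANKL were called. With 2 libraries per condition, no test for an outlying library could be made.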
